A study of Mus musculus with 20 samples.

Results

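The genes described here serve the recruitment of neutrophils and the contents of their granules. They were chosen by symbol, as the rows of the deposited count table named Cxcl1, Cxcl5, Csf3, Cxcr2, Csf3r, Ly6g, Retnlg, Ngp, Camp and Mmp8. All 10 were found among the 22090 genes of the table, of which 18160 had a count in at least 1 sample. The table came from RNA-seq of skin of female SKH-1 mice, an immunocompetent hairless strain that develops skin tumours under ultraviolet (UV) light. The mice were 7 months old when they entered the study and older when the skin was taken, after the course of irradiation. Normal skin (NS) was sampled 8 times, actinic keratosis (AK), a precancerous keratinocyte lesion, 8 times, and cutaneous squamous cell carcinoma (cSCC) 4 times. Of the 8 mice, 4 were irradiated with solar-simulating UV and 4 were not. Each irradiated mouse gave 1 normal, 2 AK and 1 cSCC tissue, so the 8 AK samples came from 4 mice. The labels do not tell irradiated from unirradiated normal skin, the grades of AK or the mouse of a sample. The p-values treat samples as independent and can be too small where samples of a group share a mouse. Where a mouse gave tissue to both groups compared, the pairing was not used and they can be too large.

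Neutrophils are short-lived granulocytes made in the bone marrow. Epithelial and stromal cells release the CXC chemokines encoded by Cxcl1 and Cxcl5, which bind the receptor encoded by Cxcr2 and draw neutrophils out of the blood. The cytokine encoded by Csf3 (G-CSF) drives the production and release of neutrophils through the receptor encoded by Csf3r. Granule proteins are mostly made in the marrow while the cells mature, so granule transcripts such as Ngp and Camp are highest in immature neutrophils, while Cxcr2 and Csf3r transcripts remain in mature cells in the tissue. In squamous skin tumours neutrophils are a regular part of the infiltrate. In bulk tissue, fewer cells of a type and less RNA per cell cannot be told apart, and Cxcl1, Cxcl5 and Csf3 can be made by keratinocytes, fibroblasts, endothelium and macrophages alike.

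Total counts ran from 775750 to 14055206 per sample, and 3 counts of a gene, the floor used here, were worth between 0.225 and 3.78 CPM (counts per 1000000 counts) depending on the sample. CPM were scaled with effective library sizes over all 20 samples. Some libraries stood apart. Haemoglobin transcripts took 46.8% of the counts of cSCC replicate 18, 14.3% of AK replicate 14 and 5.45% of NS replicate 9, against a median of 0.791% in NS. The summed level of 7 heart muscle markers was 54737 CPM in cSCC replicate 21 and that of 7 lung markers was 35922 CPM in cSCC replicate 20, whereas no NS or AK sample exceeded 73.2 and 59.3 CPM. The 7 keratinocyte markers were found in every sample, with sums between 3813 and 19108 CPM, the lowest of them in cSCC replicate 21. The calls of the genes described here and of the neutrophil lists are therefore also given without cSCC replicates 20 and 21. Levels, sums, likeness and most fold changes are given only with both.

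The stretches upstream of 4 genes are shown, the chemokine gene Cxcl1, the receptor gene Cxcr2 and the granulocyte genes Retnlg and Mmp8. Cxcl1 and Cxcr2 were both highest in cSCC replicates 19 and 20, whereas NS replicate 9 ranked 1 or 2 for Retnlg and Mmp8. RefSeq upstream windows (GRCm38.p6) were matched for 8 of the 10 genes, all but Cxcl5 and Csf3. The motifs searched on both strands in the 250 bases before each RefSeq start were GGG and TTTCC with any pair of bases between them for NF-kappaB, TTGCNNAA for C/EBP and GAGGAA, the core bound by PU.1. They occurred in 1.41%, 9.56% and 23.3% of 32851 such windows. All 4 stretches run 5′ to 3′ on the plus strand and end before the annotated transcript, and capitals mark the motif matches.
Cxcl1, chr5:90890995-90891240: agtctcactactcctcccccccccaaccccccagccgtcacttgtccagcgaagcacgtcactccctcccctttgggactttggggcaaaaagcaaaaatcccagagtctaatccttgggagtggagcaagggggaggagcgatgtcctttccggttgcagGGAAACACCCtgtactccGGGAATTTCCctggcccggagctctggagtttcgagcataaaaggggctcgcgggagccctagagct
Cxcr2, chr1:74153744-74153988: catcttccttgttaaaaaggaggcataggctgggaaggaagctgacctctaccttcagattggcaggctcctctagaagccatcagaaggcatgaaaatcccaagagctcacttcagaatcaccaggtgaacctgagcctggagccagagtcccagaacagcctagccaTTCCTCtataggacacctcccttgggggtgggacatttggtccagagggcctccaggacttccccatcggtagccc
Retnlg, chr16:48872358-48872607: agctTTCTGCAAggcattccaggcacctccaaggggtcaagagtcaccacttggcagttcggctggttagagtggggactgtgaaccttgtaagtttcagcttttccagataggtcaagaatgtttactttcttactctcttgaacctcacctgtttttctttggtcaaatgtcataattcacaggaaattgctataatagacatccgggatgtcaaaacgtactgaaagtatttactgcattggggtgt
Mmp8, chr9:7558179-7558428: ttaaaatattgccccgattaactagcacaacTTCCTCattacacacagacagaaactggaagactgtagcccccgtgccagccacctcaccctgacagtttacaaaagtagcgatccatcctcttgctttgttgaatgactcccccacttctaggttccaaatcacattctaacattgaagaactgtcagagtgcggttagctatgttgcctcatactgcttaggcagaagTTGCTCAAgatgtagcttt
The Cxcl1 stretch held 2 NF-kappaB matches, starting 89 and 71 bases before the RefSeq start, and no C/EBP or PU.1 match. No other window of the 8 genes held an NF-kappaB match. The C/EBP letters were found in the windows of Retnlg, Ngp, Mmp8 and Ly6g, and the PU.1 core in those of Cxcr2, Csf3r, Ly6g and Mmp8. The Camp window held none of these motifs. Each match describes letters and was not tested as a binding site.

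The ligand genes were highest in cSCC. Cxcl1 lies on chromosome 5 (GRCm38, bases 90891241 to 90893115, plus strand), and Cxcl5 lies 129617 bases from it on the same strand (90759360 to 90761624). The level of Cxcl1 was 15.3, 578, 100.1 and 10.3 CPM in cSCC replicates 18, 19, 20 and 21. In NS it ran from 0 to 14.8 CPM with a median of 3.40, and in AK from 0 to 18.7 CPM with a median of 4.51. The cSCC samples thus all exceeded the medians of both other groups, but replicate 21 lay inside the NS range and replicates 18 and 21 inside the AK range. Between cSCC and NS, Cxcl1 was higher by a log2 fold change of 5.25 ± 0.92 (SE, edgeR quasi-likelihood test, adjusted p = 0.00283). Between cSCC and AK it was higher by 4.94 ± 0.90 (edgeR, adjusted p = 0.00308). Much of that size came from replicate 19. Without it the log2 fold changes were 3.18 and 2.85, and both still passed the test (edgeR, adjusted p = 0.0172 and 0.0191).

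Cxcl5 was present at 1.39, 70.3, 156 and 6.62 CPM in cSCC replicates 18 to 21. It had no count in 5 of 8 NS samples and at most 9.67 CPM in the others, and it ran from 0 to 14.98 CPM in AK with a median of 3.52. Replicates 19 and 20 stood above every NS and AK sample, and replicates 18 and 21 lay within both ranges, the value of replicate 18 resting on 2 counts. The log2 fold change was 5.06 ± 1.26 between cSCC and NS (edgeR, adjusted p = 0.0142) and 3.81 ± 1.03 between cSCC and AK (edgeR, adjusted p = 0.0169). Leaving out cSCC replicate 20 gave 3.88 and 2.65 and ended both calls (edgeR, adjusted p = 0.0564 and 0.083). Leaving out NS replicate 5, the NS sample with the highest Cxcl5, raised the first value to 6.63. Without cSCC replicates 20 and 21 together the values were 4.35 and 3.14, neither of which passed (edgeR, adjusted p = 0.0519 and 0.0683).

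Csf3, on chromosome 11 (98701263 to 98703629, plus strand), was the most uneven of the ligands. It had no count in any of the 8 NS samples and 10 counts in all in AK, 2 in replicate 14 and 8 in replicate 15. In cSCC it had 0, 944, 29 and 57 counts in replicates 18 to 21, which are 0, 415, 32.995 and 9.43 CPM. The carcinoma with no Csf3 count was the library with the high haemoglobin share, in which 3 counts were worth 2.08 CPM. The mean of 114 ± 201 CPM in cSCC (SD, n = 4) was at least 134-fold higher than in NS, taken against a floor of 3 counts per NS library, on average 0.851 CPM. This limit rests on replicate 19, without which the mean was 14.1 CPM and the limit 16.6-fold. Because Csf3 did not reach the minimum count for testing, it was fitted only with every counted gene kept. There it passed between cSCC and NS (edgeR, adjusted p = 0.00565) and between cSCC and AK (edgeR, adjusted p = 0.00169), where 13.8% and 16.9% of all genes in those fits were called in either direction. Csf3 entered the fit against NS only through its carcinoma counts, so a difference there could only be higher. That p-value is therefore no support for the direction. Csf3 was not tested without replicate 19.

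**Figure D1:**
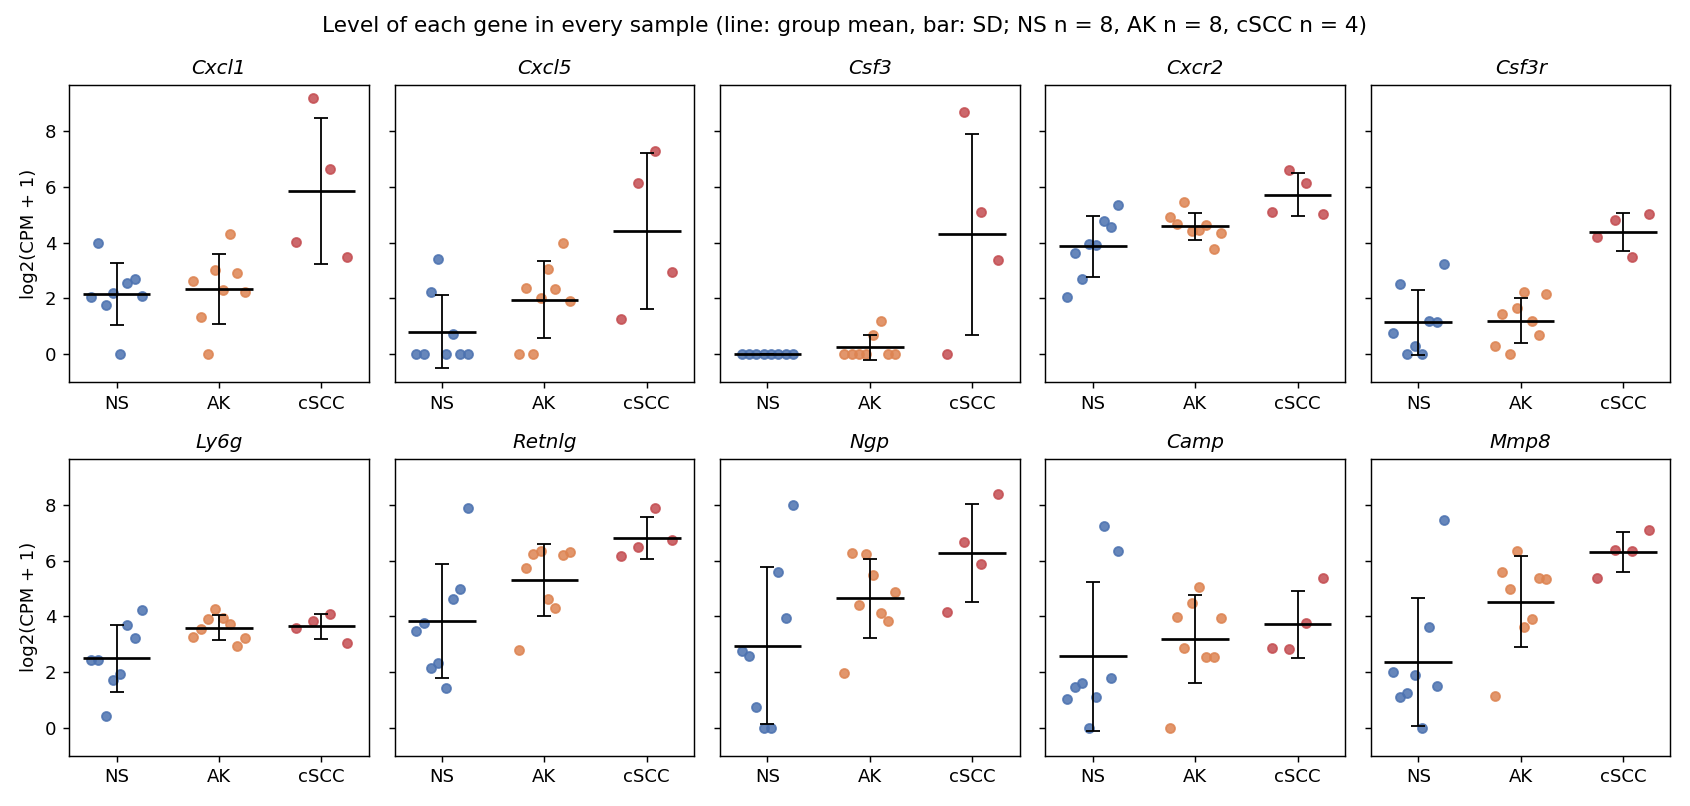
Level of each of the 10 genes in each sample, as log2(CPM + 1), for 8 NS, 8 AK and 4 cSCC samples. Each point is 1 sample, the horizontal lines mark the group means and the bars 1 SD. Cxcl1, Cxcl5 and Csf3 spread widely among the 4 carcinomas, the 4 Csf3r points of cSCC lie above all others, and NS replicate 9 stands above the other NS points for Retnlg, Ngp and Mmp8.

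Both receptor genes were higher in cSCC. Csf3r, the G-CSF receptor gene (chromosome 4, 126024550 to 126044440, plus strand), was at 17.4, 26.8, 10.2 and 31.8 CPM in cSCC replicates 18 to 21, from 25, 61, 9 and 192 counts. In NS its level ran from 0 to 8.30 CPM (median 0.961) and in AK from 0 to 3.62 CPM (median 1.51). It was the only gene of the 10 whose 4 carcinoma values all exceeded every NS value and every AK value, a separation in this direction seen in 2.70% of tested genes against NS and 3.33% against AK. The gap from NS depended on the scaling. By library size alone cSCC replicate 18 was at 8.83 CPM and NS replicate 9 at 8.67 CPM. The log2 fold change was 3.41 ± 0.84 between cSCC and NS (edgeR, adjusted p = 0.0137) and 3.78 ± 0.61 between cSCC and AK (edgeR, adjusted p = 0.00234). Both calls held when any single sample was left out. Csf3r did not reach the minimum count for testing between AK and NS, where no carcinoma was in the fit. Its place among the tested genes thus depended on the group in which it was high. Without NS replicate 9, which had the highest NS value, the difference from NS was 4.22 (edgeR, adjusted p = 0.00571).

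Cxcr2, the receptor gene for both chemokines (chromosome 1, 74153989 to 74161246, plus strand), was counted in every sample. It reached 33.3, 95.4, 69.4 and 31.6 CPM in cSCC replicates 18 to 21, compared with 3.17 to 40.2 CPM in NS (median 14.4) and 12.6 to 42.9 CPM in AK (median 22.5). Replicates 19 and 20, the same carcinomas that led for Cxcl1 and Cxcl5, were above all NS and AK samples, and the other pair lay within both ranges. The log2 fold change was 1.78 ± 0.53 against NS (edgeR, adjusted p = 0.0307) and 1.37 ± 0.34 against AK (edgeR, adjusted p = 0.0112). The call against NS was near the threshold. It was lost without NS replicate 2, 5 or 6 (edgeR, adjusted p = 0.0517, 0.0557 and 0.0534) and without cSCC replicate 19 or 20 (edgeR, adjusted p = 0.113 and 0.0637). The call against AK was lost without cSCC replicate 19 (edgeR, adjusted p = 0.052).

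Ly6g encodes the surface protein that the antibody commonly used to identify mouse neutrophils recognises (chromosome 15, 75155240 to 75159126, plus strand). It belongs to a family of similar genes, and how reads shared with relatives were counted is not known. Its level was 11.1, 13.2, 15.9 and 7.28 CPM in cSCC replicates 18 to 21. It ran from 0.339 to 17.7 CPM in NS (median 4.37) and from 6.59 to 17.999 CPM in AK (median 11.5). NS replicates 1, 2, 4, 5 and 6 were below every AK and cSCC sample, while NS replicates 7, 8 and 9 lay within the AK range. The AK and cSCC values overlapped. All 8 AK and all 4 cSCC samples were above the NS median, and the highest values were those of AK replicate 13 and NS replicate 9. The log2 fold change was 0.89 ± 0.67 between cSCC and NS (95% interval -0.42 to 2.20) and 0.13 ± 0.36 between cSCC and AK (-0.58 to 0.84). Neither passed the test (edgeR, adjusted p = 0.373 and 0.821). The interval against AK does not reach the size found for Csf3r in that comparison. Whether the difference between the genes exceeds its own error was not tested.

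Retnlg encodes a small secreted resistin-like protein made by neutrophils (chromosome 16, 48872621 to 48874496, plus strand). It was at 70.8, 89.6, 239 and 106 CPM in cSCC replicates 18 to 21 and ran from 5.99 to 79.5 CPM in AK (median 62.5). In NS the median was 11.2 CPM, the lowest value 1.69 and the highest 235 in replicate 9, with 30.7 in the next highest sample. Cancer and normal skin overlapped only through NS replicate 9. The log2 fold change between cSCC and NS was 1.72 ± 0.98 and did not pass (edgeR, adjusted p = 0.234). It was 3.41 without NS replicate 9 (edgeR, adjusted p = 0.00592). Between cSCC and AK it was 1.44 ± 0.55 (edgeR, adjusted p = 0.0677).

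The granule genes varied most among the normal samples. Ngp encodes neutrophilic granule protein and Camp the cathelicidin precursor of an antimicrobial peptide, both stored in secondary granules, and Mmp8 encodes neutrophil collagenase. All 3 lie on chromosome 9, Ngp at 110419747 to 110423012 (plus strand), Camp at 109847379 to 109849617 (minus strand) and Mmp8 at 7558456 to 7568485 (plus strand). Ngp was at 16.7, 99.7, 58.0 and 337 CPM in cSCC replicates 18 to 21, at 2.92 to 76.7 CPM in AK (median 24.3) and at 0 to 252 CPM in NS (median 5.37). Mmp8 was at 41.0, 82.6, 80.8 and 137 CPM in cSCC, at 1.20 to 80.4 CPM in AK (median 34.7) and at 0 to 173 CPM in NS (median 2.26). In NS the highest value of both genes was that of replicate 9, and the next highest were 47.5 CPM for Ngp and 11.2 CPM for Mmp8. Between cSCC and NS the log2 fold change was 1.73 ± 1.32 for Ngp and 1.87 ± 1.21 for Mmp8, neither past the threshold (edgeR, adjusted p = 0.383 and 0.298). Without NS replicate 9 these became 3.64 and 4.76, both past it (edgeR, adjusted p = 0.0453 and 0.00234). Ngp also rested on cSCC replicate 21, the carcinoma with the heart muscle transcripts. Without it the Ngp difference from NS was 0.56 (edgeR, adjusted p = 0.829).

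Against AK, Ngp was higher in cSCC by 2.08 ± 0.74 (log2 fold change) and Mmp8 by 1.52 ± 0.66, and neither passed (edgeR, adjusted p = 0.0528 and 0.104). The Ngp value stood close to the threshold. It passed without AK replicate 11 or 13 or without cSCC replicate 18 or 20 (edgeR, adjusted p = 0.0425, 0.0465, 0.0229 and 0.0475), and fell to 0.76 without cSCC replicate 21 (edgeR, adjusted p = 0.503).

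Camp differed from the other granule genes. It was at 6.25, 6.15, 12.515 and 41.0 CPM in cSCC replicates 18 to 21 and at 0 to 32.6 CPM in AK (median 10.2). In NS its median was 1.89 CPM, while replicate 7 reached 151 CPM from 947 counts and replicate 9 reached 79.8 CPM from 375 counts. The other 6 NS samples had at most 8 counts each. The highest Camp values of the series were therefore from normal skin, and every carcinoma lay within the NS range. The log2 fold change was -0.76 ± 1.43 between cSCC and NS (95% interval -3.56 to 2.04) and 0.62 ± 0.90 between cSCC and AK (-1.15 to 2.39). Neither passed (edgeR, adjusted p = 0.75 and 0.653), and the direction turned without NS replicate 7 (0.49) and without cSCC replicate 21 (-0.62), respectively. In NS replicate 7 there were 3.18 Camp counts per Ngp count, from 947 and 298 counts. In the other samples with enough Ngp counts for a ratio it ran from 0 to 0.745.

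**Figure D2:**
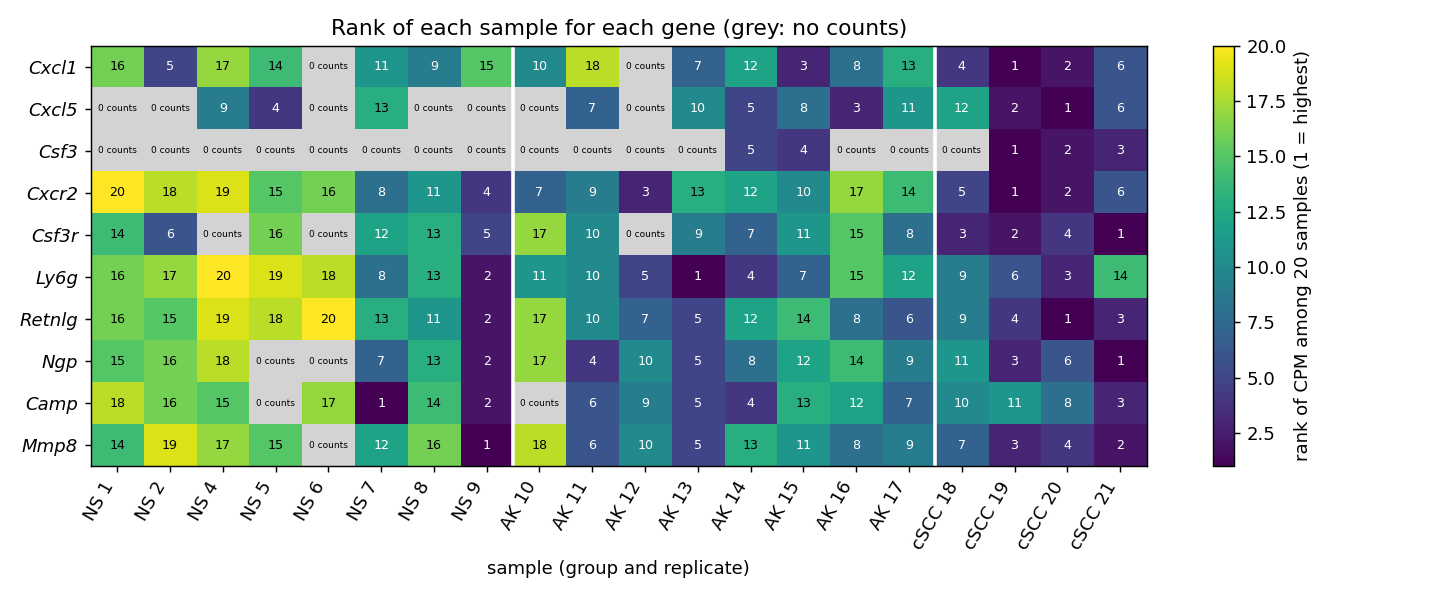
Rank of each of the 20 samples for each gene, with 1 for the highest CPM and grey squares where the gene had no count. NS replicate 9 ranks 1 or 2 for Ly6g, Retnlg, Ngp, Camp and Mmp8 but 15 for Cxcl1, whereas cSCC replicates 19 and 20 rank 1 and 2 for Cxcl1 and Cxcr2.

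The AK samples were compared with NS to ask whether the genes already differed in the precancerous lesion. Csf3 and Csf3r did not reach the minimum count for testing in this comparison. None of the 8 genes tested was called, whereas 4.64% of the 11677 tested genes were. Called here means an adjusted p below 0.05 together with a fold change above 1.5 or below 0.67. None of the 8 reached an unadjusted p of 0.05 either, and DESeq2 and limma voom with quality weights called none. Their median log2 fold change was 0.37, beside -0.04 over all tested genes. The intervals were wide. That of Mmp8 ran from -1.50 to 2.30 and that of Camp from -3.38 to 0.81 on the log2 scale, so changes of several fold in either direction were not excluded for Mmp8. Ratios of medians and of means pointed apart for the granule genes. The AK median of Mmp8 was 15.3 times the NS median, but the AK mean was only 1.35 times the NS mean. For Camp the median was 5.43 times and the mean 0.413 times that of NS.

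Normal skin replicate 9 set the outcome of this comparison for Retnlg and Mmp8. Without it, Retnlg was higher in AK by a log2 fold change of 1.99 and Mmp8 by 3.28, and both passed (edgeR, adjusted p = 0.0444 and 0.0156). Without NS replicates 7 and 9 together, a choice made after the values were seen, 5 of the genes were called higher in AK. In that fit 359 of all 11768 tested genes were called higher and 341 lower. These were Ly6g (1.59), Retnlg (2.23), Ngp (2.94), Camp (3.15) and Mmp8 (4.13), with edgeR adjusted p-values of 0.042, 0.0423, 0.0423, 0.0449 and 0.00997. The chemokine genes Cxcl1 and Cxcl5 were not called in this setting. Nothing in the labels sets NS replicates 7 and 9 apart from the other NS samples. In NS replicate 9 haemoglobin (5.45% of counts) and the summed mast cell, eosinophil and endothelial markers (1319, 40.4 and 78.5 CPM) were also the highest of the NS group. Their part in the granule values was not tested.

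In cSCC against NS, 4 of the 9 tested genes were called, while 19.3% of the 12097 tested genes were. In cSCC against AK, again 4 of 9 were called, beside 24.4% of 12032 genes. All these calls were higher in cSCC. None of the genes was called lower, as 7.65% of all tested genes were against NS and 8.34% against AK. Cxcl1, Cxcl5, Cxcr2 and Csf3r were called in both comparisons, which share the 4 carcinomas. Of these, Csf3r was too low to be tested between AK and NS, so it counts here through the group in which it was high. The median log2 fold change of the tested genes was 1.78 against NS and 1.52 against AK, beside 0.14 and 0.17 over all tested genes. At an unadjusted p below 0.05 the count against AK rose to 7, with Retnlg, Ngp and Mmp8 added, while 2888 of all 12032 tested genes were then called higher. Leaving out cSCC replicates 20 and 21 left Cxcl1 and Csf3r called against NS, and Cxcl1, Cxcr2 and Csf3r against AK. In those fits 12.2% and 12.6% of all tested genes were called in either direction.

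**Figure D3:**
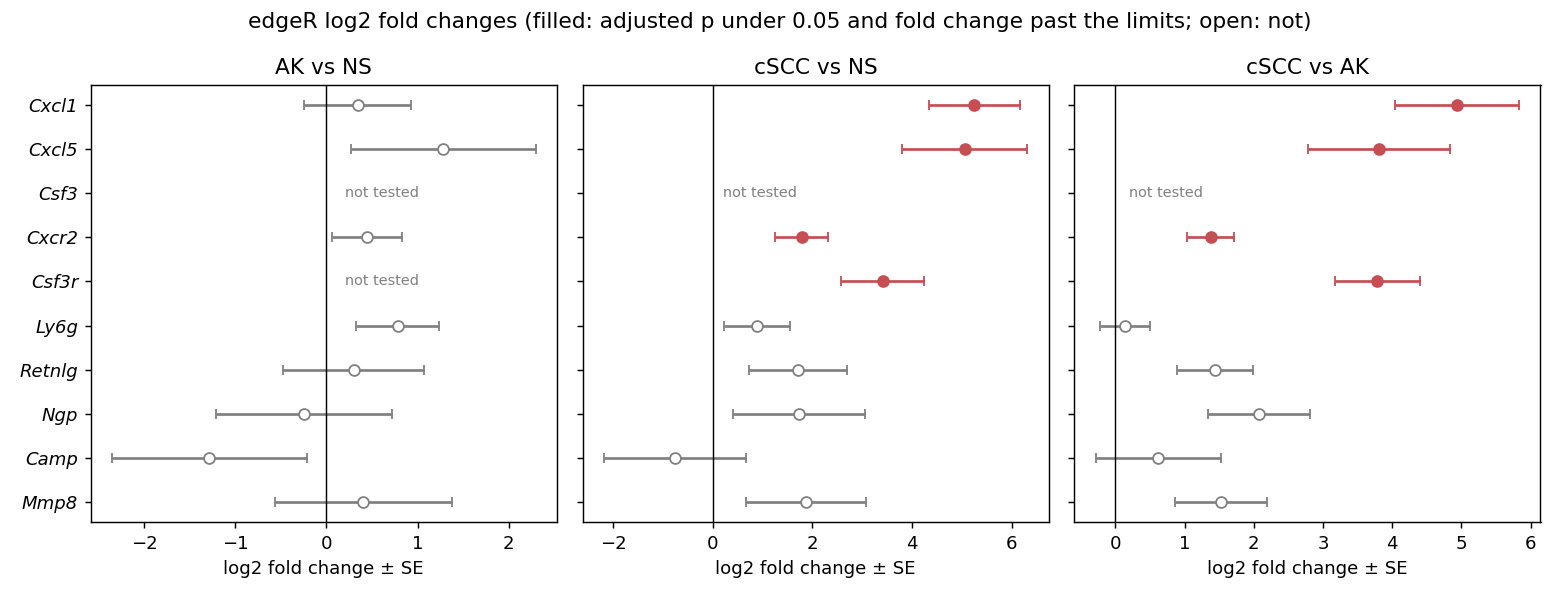
Log2 fold change of each tested gene in the 3 comparisons from edgeR, with bars of 1 SE. Filled points were called and open points were not. In AK against NS all 8 points are open, and in both cSCC comparisons the filled points are Cxcl1, Cxcl5, Cxcr2 and Csf3r.

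**Figure D4:**
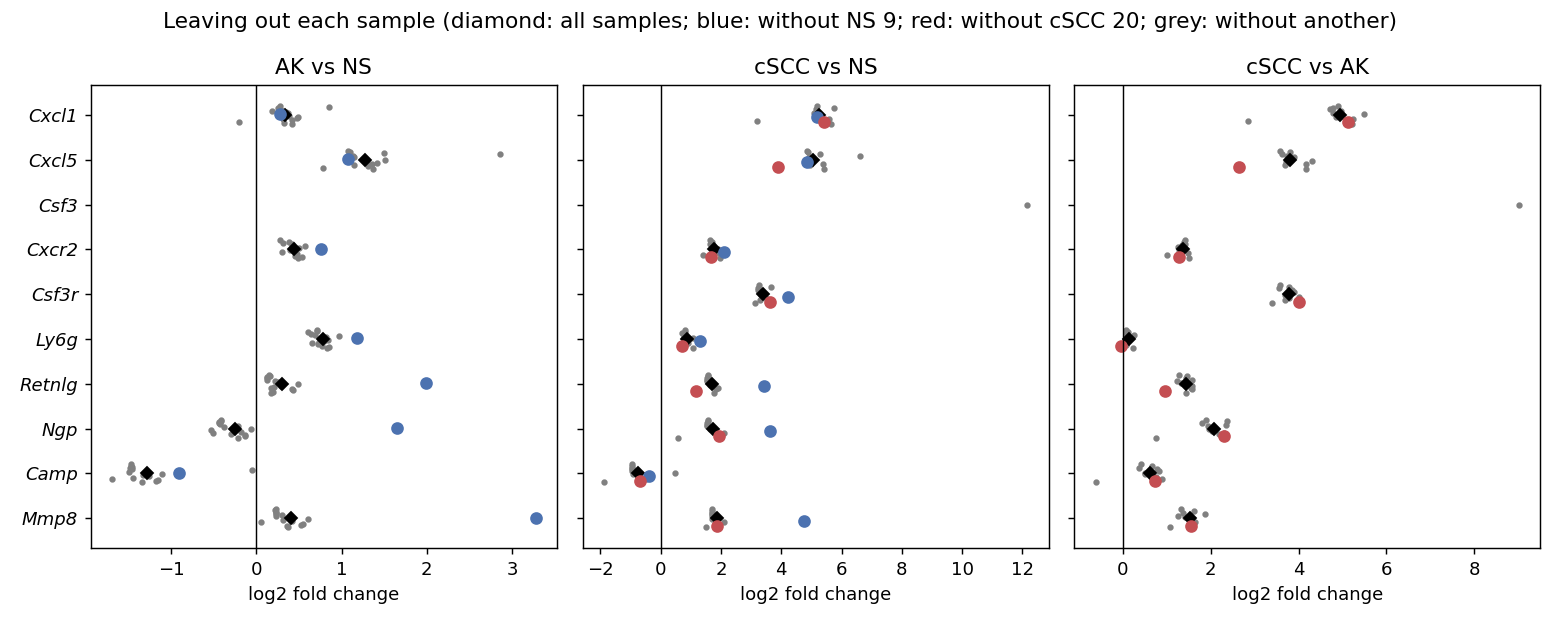
Log2 fold change of each tested gene with all samples (diamonds) and as each sample in turn was left out (points, blue without NS replicate 9, red without cSCC replicate 20, grey without another). Csf3 reached the minimum count for testing only without cSCC replicate 18. Among the other genes, wide shifts include those of Mmp8, Ngp and Retnlg without NS replicate 9, of Cxcl1 without cSCC replicate 19, of Cxcl5 without NS replicate 5 or cSCC replicate 20 and of Camp without NS replicate 7 or cSCC replicate 21.

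The carcinomas did not rank alike for recruiting signals and granule transcripts, through replicate 21, the library with the heart muscle transcripts. Replicates 19, 20 and 18 followed each other in that order in both sums. The summed level of Cxcl1, Cxcl5 and Csf3 was 16.7, 1063, 289 and 26.3 CPM in cSCC replicates 18, 19, 20 and 21. The summed level of Ngp, Camp and Mmp8 was 63.9, 189, 151 and 515 CPM in the same order. Replicate 21 thus had the highest granule sum of the 20 samples, and its ligand sum was rank 3 of 20. NS replicate 9 had the next highest granule sum, 505 CPM, with a ligand sum of 3.19 CPM, rank 17 of 20. NS replicate 7 followed with 209.7 and 5.42 CPM. AK replicate 13 had the highest granule sum of the AK samples, 176 CPM, and a ligand sum of 10.1 CPM. With 4 carcinomas no relation between these sums was tested.

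**Figure D5:**
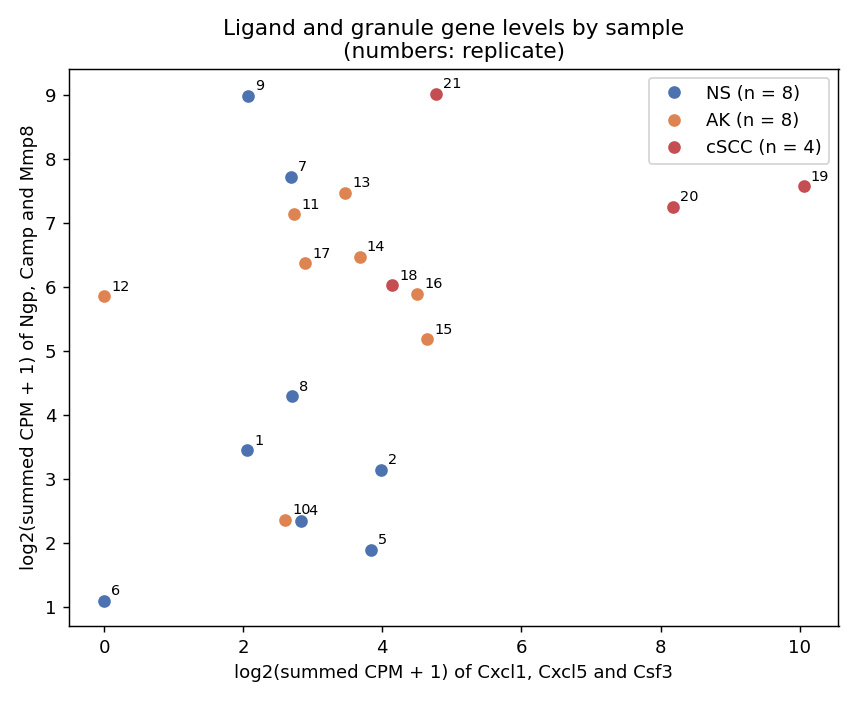
Summed CPM of Ngp, Camp and Mmp8 against summed CPM of Cxcl1, Cxcl5 and Csf3 in each of the 20 samples, both as log2(summed CPM + 1), with points coloured by group and numbered by replicate. cSCC replicates 19 and 20 lie far to the right, while NS replicates 7 and 9 lie high at ligand sums of 5.42 and 3.19 CPM.

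Levels were compared between genes per kilobase of exon. In cSCC the order of mean levels was Retnlg (213 CPM per kb), Ngp (105), Cxcl1 (93.9), Csf3 (80.9), Mmp8 (35.2), Cxcl5 (31.4), Camp (21.7), Cxcr2 (18.8), Ly6g (12.6) and Csf3r (5.97). The standard deviations were as large as the means or larger for Ngp, Cxcl1, Csf3, Cxcl5 and Camp, so neighbours from Ngp to Cxcr2 in this order did not differ beyond their spread. In NS the order of levels depended on replicates 7 and 9. The order of mean levels began with Retnlg (67.6 CPM per kb), Camp (39.5), Ngp (33.3) and Mmp8 (10.03), all with standard deviations above the mean, and ended with Cxcl5 (0.942), Csf3r (0.566) and Csf3 (0). By NS medians the order began with Retnlg (18.96 CPM per kb), Cxcr2 (4.71), Ly6g (4.64) and Ngp (4.39), with Camp at 2.49 and Mmp8 at 0.933. Retnlg was first in both groups. The spread of a gene over the carcinomas, as SD over mean CPM, was 1.76 for Csf3, 1.54 for Cxcl1 and 1.23 for Cxcl5, compared with 0.446 for Csf3r, 0.462 for Mmp8 and 0.307 for Ly6g.

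Other genes of the pathway were counted from lists of attractants, receptors and granule proteins. The lists were made with earlier results of these data known. The paper had already named Cxcl2, Cxcl3, Ccl3, Ccl4, Mmp9 and S100a9 among genes changed in cSCC, and also Mmp8 described above. The counts are therefore not independent of it. Their counts stand beside the shares of all tested genes called in either direction, 4.64% in AK against NS, 19.3% in cSCC against NS and 24.4% in cSCC against AK. Without cSCC replicates 20 and 21 the latter pair of shares was 12.2% and 12.6%. Of 14 other attractants and inducing cytokines, 8 were tested between cSCC and NS and 5 were called higher, Il1b, Cxcl2, Cxcl3, Ccl3 and Ccl4, with a median log2 fold change of 3.72 over the tested genes. Il1b, a cytokine that induces CXC chemokines, averaged 812 ± 597 CPM over the 4 carcinomas (SD) and 22.4 ± 9.88 CPM over the 8 NS samples, a log2 fold change of 5.24 ± 0.55 (edgeR, adjusted p = 0.000297). The chemokine genes Cxcl2 and Cxcl3, whose products also bind CXCR2, were higher by 5.19 ± 0.55 and 5.05 ± 0.79 (edgeR, adjusted p = 0.000297 and 0.00167). Every carcinoma exceeded every NS sample for Il1b, Cxcl2 and Cxcl3, as for 2.70% of tested genes. Against AK this was so for Cxcl3 only, while the lowest carcinoma values of Il1b and Cxcl2, 149 and 53.6 CPM, lay below the highest AK values of 174 and 61.1 CPM. Between cSCC and AK, 5 of 9 tested were called higher (Cxcl2, Cxcl3, Il1b, Tnf and Ccl4), with a median of 2.33. Cxcl3, Il1b and Cxcl2 were higher by 5.69 ± 0.89, 4.03 ± 0.59 and 3.43 ± 0.84 (edgeR, adjusted p = 0.00219, 0.00187 and 0.0112). Between AK and NS, 1 of 7 was called, Ccl3, a chemokine gene for monocytes and neutrophils, higher in AK by 2.76 ± 0.69 (edgeR, adjusted p = 0.0297). None of this list was called lower. Without cSCC replicates 20 and 21 the counts were 7 of 9 against NS and 6 of 10 against AK.

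Of 16 further chemotactic receptors and adhesion genes, 7 of 14 tested were called higher in cSCC than in NS (19.3% of all genes called), 6 of 14 higher than in AK (24.4%) and 0 of 13 in AK against NS (4.64%), with no lower call and medians of 1.84, 1.37 and 0.52. Cxcr1, the second CXC chemokine receptor gene of neutrophils, averaged 8.31 ± 7.49 CPM (SD) over the carcinomas and 0.805 ± 1.67 CPM over NS, a log2 fold change of 3.33 ± 1.05 (edgeR, adjusted p = 0.0384). The formyl peptide receptor genes Fpr1 and Fpr2, which sense bacterial and mitochondrial peptides, were higher by 3.27 ± 0.96 and 2.92 ± 0.96 (edgeR, adjusted p = 0.0283 and 0.0464). The other genes called against NS were C5ar1, Ltb4r1, Ccr1 and Icam1. Without a call, the integrin genes Itgb2 and Itgal were lower in cSCC than in NS (log2 fold change -0.36 and -0.13). Itgb2 and Itgam were lower than in AK (-1.01 and -0.11), also uncalled. The other tested genes of the list were higher in each of these comparisons. Against AK the largest differences were those of Cxcr1, C5ar1, the complement C5a receptor gene, and Fpr1, at 3.04 ± 0.75, 2.78 ± 0.61 and 2.36 ± 0.48 (edgeR, adjusted p = 0.0114, 0.00682 and 0.00477), and Cxcr4, Fpr2 and Ltb4r1 were also called. Without cSCC replicates 20 and 21, 4 of 14 remained called against NS, with C5ar1 among them and Cxcr1, Fpr1 and Fpr2 not, and 4 of 15 against AK.

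Of 11 other secondary and tertiary granule genes, 1 of 10 tested was called higher in cSCC than in NS, Mmp9, the gelatinase B gene, by a log2 fold change of 2.79 ± 0.49 (edgeR, adjusted p = 0.00288). Against AK 3 of 10 were called higher, the lactoferrin gene Ltf, the lipocalin gene Lcn2 and the peptidoglycan recognition gene Pglyrp1, by 4.00 ± 0.78, 2.09 ± 0.27 and 1.72 ± 0.39 (edgeR, adjusted p = 0.00392, 0.00116 and 0.00812). Without a call, Chil3, Cybb, Cyba and Lyz2 were lower than in AK (log2 fold change -0.84, -0.93, -0.40 and -0.29). Cybb and Cyba were also lower than in NS (-0.23 and -0.10), again uncalled. The other tested genes were higher in each comparison. Between AK and NS 0 of 8 was called. The 1 of 10 against NS was below the 19.3% of all tested genes called, and the 3 of 10 against AK was near their 24.4%. Without cSCC replicates 20 and 21 the call against NS was again Mmp9 and that against AK was Lcn2 alone. Lcn2 and Mmp9 are also made by keratinocytes and macrophages. The primary granule list held the granule genes Mpo, Elane, Prtn3 and Ctsg and the progenitor marker gene Ms4a3. These 5 genes, which are transcribed in marrow progenitors, were too low to be tested in any comparison. Their summed level was at most 7.98 CPM in NS, 4.15 CPM in AK and 4.39 CPM in cSCC, and Elane had no count in the 4 carcinomas.

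Of 20 genes listed as marks of mature neutrophils, the comparison of cSCC with NS called 5 of 19 tested higher and 1 lower. This stands beside 19.3% of all genes called. The comparison with AK called 8 of 18 higher and none lower, beside 24.4%. The receptor gene Trem1, which amplifies myeloid inflammation, averaged 71.9 ± 44.4 CPM (SD) over the carcinomas and 1.30 ± 1.97 CPM over NS, a log2 fold change of 5.75 ± 0.89 (edgeR, adjusted p = 0.00167). Irg1, for the enzyme that makes itaconate, and Hdc, for the enzyme that makes histamine, were higher by 4.79 ± 0.79 and 3.45 ± 0.64 (edgeR, adjusted p = 0.002 and 0.00377). Irg1 is also made by macrophages and Hdc by mast cells. The paper measured S100a9 in HaCaT keratinocytes and in carcinoma lines, so its transcripts need not come from neutrophils. Of the same list, BC100530, Stfa3 and Il1r2 averaged 1818, 1062 and 333 CPM in NS, where Ly6g averaged 6.48 CPM. The cell source of these transcripts was not tested. Clec4e and Slfn4 were also called. Against AK, Trem1, Irg1 and Hdc were higher by 4.25 ± 0.90, 4.16 ± 0.55 and 3.32 ± 0.55 (edgeR, adjusted p = 0.00559, 0.00126 and 0.00242), and S100a8, S100a9, Clec4e, Slfn4 and G0s2 were called as well. S100a8, S100a9 and G0s2 were not called against NS (edgeR, adjusted p = 0.177, 0.0719 and 0.0999). Wfdc21 was the gene called lower, in cSCC by 2.66 ± 0.60 and in AK by 2.55 ± 0.45 relative to NS (edgeR, adjusted p = 0.0092 and 0.0151), from a mean of 200.04 CPM in NS. In AK against NS no other gene of the 17 tested was called. Without cSCC replicates 20 and 21 the counts were 5 higher and 1 lower of 19 against NS and 7 higher of 18 against AK.

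Markers of other cells were read beside these values. All 6 endothelial markers were called higher in cSCC against both groups, with sums of 103 to 507 CPM against 22.7 to 78.5 in NS and 25.1 to 96.5 in AK, but none was called without cSCC replicates 20 and 21. Of 9 monocyte and macrophage markers, 1 (C1qa) was called higher in cSCC against either group, and their sum ran from 351 to 1252 CPM in cSCC, 281 to 1078 in NS and 451 to 1228 in AK. The 8 erythroid and platelet markers had sums of 12792 to 922027 CPM in cSCC and 855 to 52553 in NS, and 5 of 7 tested were called higher. Mast cell, eosinophil and fibroblast markers gave no call between cSCC and NS, and of the keratinocyte markers Dsg3 was called higher and Krt1 and Krt10 lower. Of the T cell markers, Cd3g was called lower in cSCC than in both groups. In AK against NS no gene of these lists or of the heart and lung lists was called. The part of blood, endothelium or other tissue in the levels of the neutrophil genes was not tested. Without the 2 carcinomas that held most heart and lung transcripts, Cxcl1 and Csf3r were called against both groups. That setting leaves cSCC replicates 18 and 19, with Cxcl1 at 15.3 and 578 CPM and haemoglobin at 46.8% and 1.44% of counts. The heart marker sum of replicate 19 was 101 CPM, against at most 73.2 CPM in an NS or AK sample.

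The genes whose pattern over the 20 samples was most like that of the called chemokines were found by the root mean square difference of standardised log2(CPM + 1) values over 13635 genes, for which the median was 1.38. For the mean of Cxcl1 and Cxcl5 these were Hmga2 (0.434), Ctbp2 (0.480), Ccnd1 (0.494), Irg1 (0.498) and Il6 (0.503). For the mean of Csf3r and Cxcr2 they were Entpd1 (0.478), Parva (0.498), Cyp4f18 (0.525), Nans (0.526) and Carhsp1 (0.528). The 2 sets shared no gene. The values describe likeness over these libraries, which differ in depth and in group, and no test was made.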

How the data were processed

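RNA-seq of mouse skin was analysed from a single table of gene counts deposited by the authors, with 8 NS, 8 AK and 4 cSCC samples named by their labels. According to the study's methods, reads were trimmed with Trimmomatic, aligned to GRCm38 with HISAT2 and quantified with StringTie. The submitters' processing notes instead name Trimmomatic 0.36, HISAT2 2.0.5 and featureCounts 1.5.2, with the builds mm9 and hg19, so the build and counter of the table are unsettled. Whether strand was used and how shared reads were counted are not given in the sources used here. The deposited values are whole raw counts with no normalization. Coordinates and exon lengths came from GENCODE M21 (GRCm38) and upstream sequences from RefSeq (GRCm38.p6), joined by symbol.

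Each pair of groups was fitted alone, with no covariates, using edgeR 4.0.16 in R 4.3.3 (TMM factors, filterByExpr, quasi-likelihood test, Benjamini-Hochberg adjustment over all tested genes). Genes with an adjusted p below 0.05 and a fold change above 1.5 or below 0.67 were called. CPM used TMM factors over the 20 samples. Totals of 775750 to 14055206 counts set the precision, and floors of 3 counts cover counting error only. Alternatives were DESeq2 1.42.0, limma 3.58.1 voom with quality weights, other scalings and filters, a fit of all groups, removal of haemoglobin genes and omission of samples. The scripts were tested on simulated counts. Of 62 within-group sample pairs, none agreed within sampling noise (smallest chi-square per degree of freedom 11.3). The labels do not say which samples share a mouse, so the p-values rest on the spread between these samples, taken as independent.

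The genes and lists were chosen with earlier results of these data known. From each pathway list the 3 called genes with the largest change per comparison and direction were named with their values, and the other called genes by symbol.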

Additional observations from a re-analysis of the deposited data

Results flagged for a closer look

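For each gene with a value above 0 in a group, the highest or lowest sample was compared with the rest of its group by the gap to its nearest neighbour over the whole range (Dixon's criterion). Of 29 gene and group combinations, 9 stood out. The criterion flags about 1 in 20 by chance for normally distributed values, a rate that need not hold for skewed CPM such as these. For Cxcl1 these were NS replicate 2 at 14.8 CPM (next 5.48), AK replicate 15 at 18.7 CPM (next 7.01) and cSCC replicate 19 at 578 CPM (next 100.1). For Cxcl5 it was NS replicate 5 at 9.67 CPM (next 3.73). For Csf3 these were AK replicate 15 at 1.28 CPM, which rests on 8 counts, and cSCC replicate 19 at 415 CPM (next 32.995). NS replicate 9 stood out for 3 genes, Retnlg at 235 CPM (next 30.7), Ngp at 252 CPM (next 47.5) and Mmp8 at 173 CPM (next 11.2). The 9 results thus came from 5 samples, and the Cxcl1 and Csf3 results of a group named the same sample in AK and in cSCC. The genes of a sample share its library and are not independent.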

How the results depend on the processing

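No gene of the 10 was called lower in any comparison under any setting. The number called higher in cSCC against NS (4) fell to 1 with at least 10 counts required in every sample, which kept Cxcr2 and removed the low-count genes from the test, and to 2 without cSCC replicates 20 and 21. Over all tested genes, 1414 of 12097 were called higher with all samples. The count was 958 of 6790 under that filter and 733 of 12762 without those replicates. Leaving out single samples gave 2 to 7 of the 10 genes, 7 without NS replicate 9 and 2 without cSCC replicate 20. Over all genes these fits gave 859 to 1890 higher calls, 1118 without NS replicate 9 and 1439 without cSCC replicate 20. Against AK (4) the number of the 10 genes was 7 at unadjusted p-values and 3 to 6 without single samples, beside 2888 and 837 to 2330 over all genes. In AK against NS (0) it was 0 to 2 without single samples and 5 without NS replicates 7 and 9, a setting added after the data were seen. Over all genes the higher calls were 87 to 437 and 359. Leaving out NS replicates 7 and 9 gave 6 in cSCC against NS, with Cxcl5 no longer called (edgeR, adjusted p = 0.0503). In that fit 678 of all 11781 tested genes were called higher.

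Directions that turned were all of values not called with all samples. In AK against NS, Cxcl1 ran from -0.21 to 0.85 without single samples. Ngp (-0.25) was 2.67 under voom, 2.94 without NS replicates 7 and 9 and -0.53 to 1.66 without single samples. Camp (-1.28) was 0.031 under DESeq2, 0.38 under voom and 3.15 without NS replicates 7 and 9. In cSCC against NS, Camp (-0.76) was 0.53 under DESeq2, 1.37 under voom and -1.89 to 0.49 without single samples. In cSCC against AK, Ly6g (0.13) was -0.066 with library size alone, -0.041 with every counted gene kept and -0.031 to 0.27 without single samples, and Camp (0.62) was -0.95 without cSCC replicates 20 and 21 and -0.62 to 0.90 without single samples. The cause was not tested.

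Some calls depended on the tool. Retnlg was called in cSCC against NS by DESeq2 (adjusted p = 0.000229) and voom (adjusted p = 0.0209), and Mmp8 by voom (adjusted p = 0.00698). Against AK, DESeq2 called Retnlg and Ngp (adjusted p = 0.0438 and 0.0244). Cxcr2 against NS was lost with library size alone (edgeR, adjusted p = 0.0553), a scaling that moved the median of all genes by -0.31. In cSCC, 3 counts were worth up to 3.41 CPM, so low levels of Csf3 or Cxcl5 could be missed there. No paired analysis was possible because the replicate numbers in the labels differ between the groups.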
